A study of Mus musculus with 10 samples.

Results

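Bone marrow derived macrophages labelled Tlr4 -/- (KO), primary macrophages grown from the marrow of C57BL/6 mice, were compared untreated and after 6 h in a control medium. That medium held 5% fetal bovine serum (FBS) and 2% bovine serum albumin (BSA). The comparison used 4 of the 10 libraries of the series, 2 untreated and 2 control, all KO. The untreated KO cells carry the same label and strain, and the labels give no medium, serum, albumin or time for them. Serum, albumin, the change of medium and the hours in culture therefore cannot be told apart. The WT cells of the same strain, 2 untreated and 2 in the same control medium, serve below for contrast, and the remaining 2 libraries, of KO cells that also received Poly(I:C), enter the shared estimate of spread and the filter on low values that sets which genes are tested. The labels do not say whether libraries of a group came from separate mice or cultures, so the p-values rest on the spread between libraries, and that spread may be technical. Levels are CPM, a gene's share of its library's total after scaling, each difference is control minus untreated on the log2(CPM + 0.1) scale, and a gene is said to have risen or fallen where limma's adjusted p was under 0.05. Values written "from ... to" are untreated libraries 1 and 2, then control libraries 1 and 2.

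TLR4 is the cell surface receptor for bacterial lipopolysaccharide. It signals through the adaptors MyD88 and TRIF to NF-kB and to interferon genes. Serum brings growth factors and lipoproteins to a culture, and albumin is the main carrier of free fatty acids in blood. Inside a macrophage, fatty acids bind the nuclear receptors of the PPAR family, which raise genes of lipid droplets and of fatty acid oxidation, while SREBP2 raises cholesterol synthesis genes when membrane sterol is low.

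Deposited totals were 25.2 to 26.7 M units in the 4 KO libraries, and replicates correlated at 0.993 or above on the log scale across genes (0.9933 in untreated and 0.9935 in control cells). These totals follow the authors' scaling and do not show sequencing depth. Untreated 1 and control 1 had 16405 and 16432 genes above 0, against 15622 and 15426 in untreated 2 and control 2. Of the whole numbers 1 to 50, those libraries skipped 0, 0, 8 and 16. The depth of the libraries was not tested. Macrophage genes were high in all 4. Lyz2, which encodes lysozyme, took 1.93% to 2.27% of each total, Adgre1, the F4/80 antigen, lay at 3038 and 3399 CPM in the untreated libraries and 3874 and 4078 CPM in the control libraries, and Csf1r, the M-CSF receptor, at 1544 and 1606 CPM in the untreated libraries and 2045 and 2086 CPM in the control libraries. The 27 macrophage genes in the table summed to 33849 and 35480 CPM in untreated and 31906 and 32688 CPM in control cells. Markers of T and NK cells summed to 1.11 to 1.43 CPM, with Cd3e, Cd3g and Cd8a among 7 at 0 in all 4 libraries.

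Tlr4 itself (ENSMUSG00000039005, chromosome 4, 66827584 to 66930284 of GRCm38) was detected in every library labelled KO, at 44.4 and 44.9 CPM in the untreated libraries and 30.8 and 34.6 CPM in the control libraries. It fell by 0.45 on the log2 scale (SE 0.14, limma adjusted p = 0.0495), and the groups did not overlap. The table gives 1 value per gene, so a part of the gene removed by the knockout cannot be seen in it. WT cells had a log2 difference of −0.86, and the genotypes' responses did not differ beyond the threshold (interaction adjusted p = 0.121), except that scaling by totals alone gave an adjusted p of 0.00162. The call was lost for Tlr4 without any 1 of the 4 KO libraries, with median-of-ratios scaling, with the deposited scaling and with no filter (adjusted p up to 0.232), where the p in brackets, here and below, is the highest with 1 library left out.

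KO cells answered the control medium broadly and with modest sizes. Of 13171 genes tested, 1436 (10.9%) rose and 1196 (9.08%) fell, together 20.0%, and 4364 had an unadjusted p under 0.05. Among those called, 258 rose and 214 fell by at least 1 on the log2 scale, and the median absolute difference was 0.555. Over all genes the median difference was 0.00444 and the median absolute difference 0.219. The deposited rlog table, another transformation of the same libraries by the authors, gave 1312 (9.96%) higher and 1305 (9.91%) lower, and 2492 of the 2632 calls were shared with the same sign. Both control libraries lay above both untreated ones for 32.2% of genes and below them for 31.0%. None of the 203 named genes that were called had overlapping groups, and parts of the naming rule required this. A statement of no overlap for a called gene therefore adds nothing to its call. Leaving out 1 library lowered the number of calls to 1584 without untreated 1, 1254 without untreated 2, 1340 without control 1 and 1037 without control 2.

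In WT cells the same comparison called 4357 genes higher (33.1%) and 4315 lower (32.8%), with a median absolute difference of 0.599. The 2 comparisons share no library. Of the genes that rose in KO cells 74.6% also rose in WT cells (1071 genes, 24.6% of those that rose in WT), and of those that fell in KO 65.1% also fell in WT (779 genes, 18.1% of those that fell in WT). The response differed between genotypes (the interaction of genotype and medium) for 6025 genes, with KO above WT in 2904 (22.0%) and below in 3121 (23.7%). These WT values move with the scaling in a way the KO response does not. Scaling by totals alone took the median WT difference from −0.00545 to −0.523, with 2267 higher and 7689 lower in WT and 6518 interactions above and 1695 below. The KO median moved only to −0.0304, with 1170 genes higher and 1387 lower. Signs of small WT differences given below are therefore relative to the main scaling. Counts of WT and interaction calls within lists, given below, are to be read beside the shares of all genes given here.

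**Figure D1:**
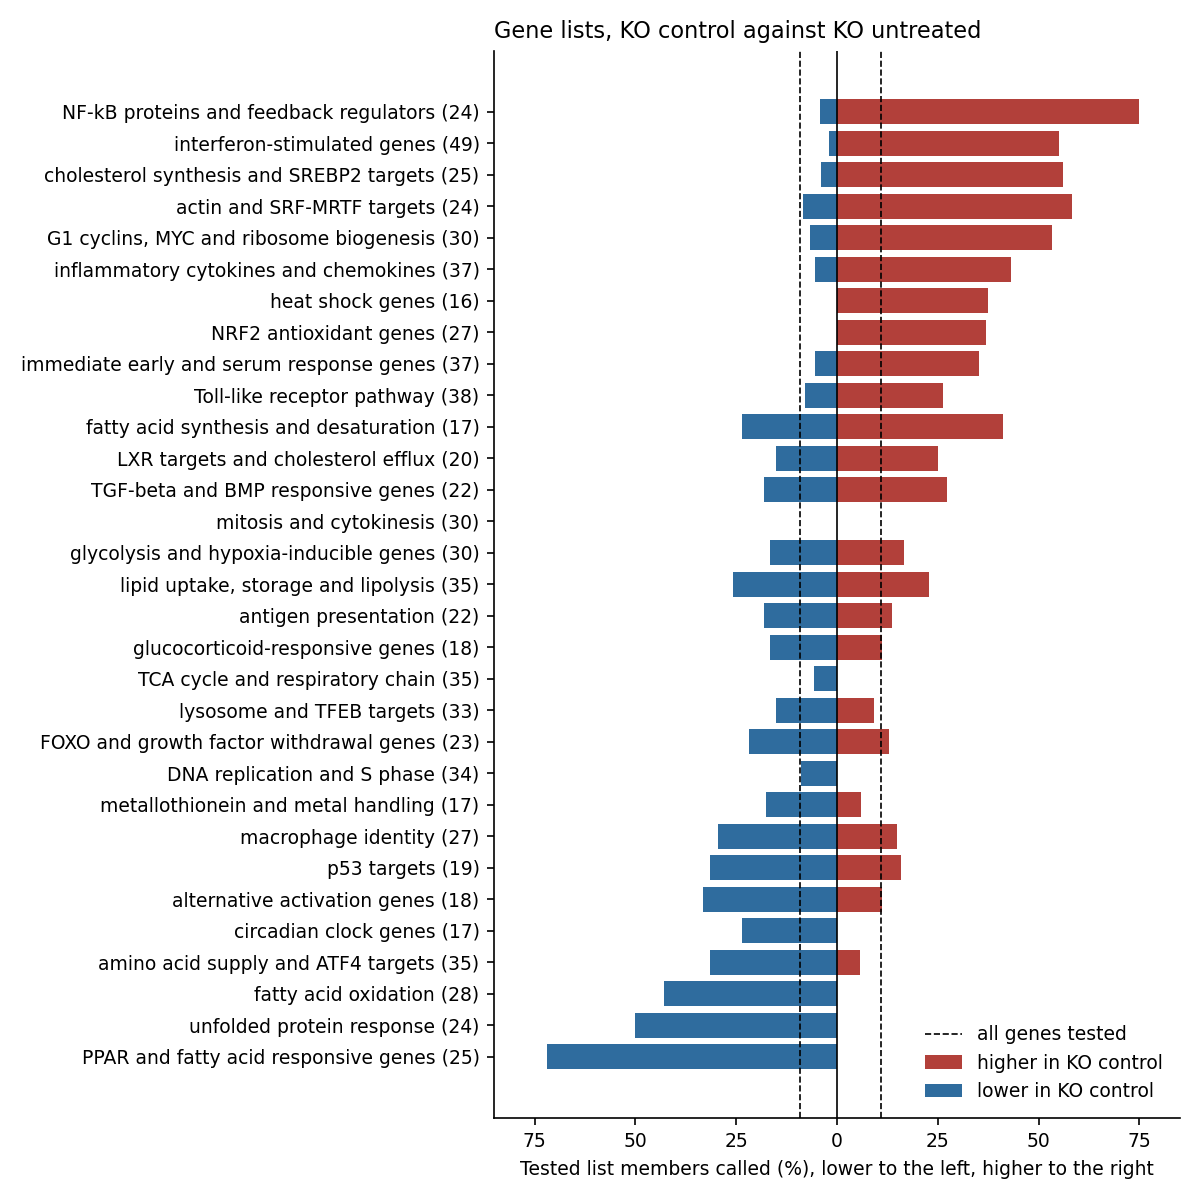
Share of tested members (numbers in brackets) of 31 gene lists that were called higher (right, red) or lower (left, blue) in KO control cells against KO untreated cells, by limma at adjusted p under 0.05. Dashed lines mark the same shares over all genes, 10.9% higher and 9.08% lower. PPAR and unfolded protein response genes lie far to the left, and NF-kB, interferon, cholesterol and actin genes to the right.

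Genes that respond to fatty acids fell together. Of 25 tested members of the PPAR list, 18 fell (72.0%, against 9.08% of all genes) and 7 did not pass. At an unadjusted p under 0.05 the counts were 19 lower and 0 higher, and the rlog data gave 18 lower and 0 higher. The median difference was −0.631, and 11 to 15 members fell when 1 KO library was left out (11 without control 2). In WT cells 18 fell and 5 rose (median −0.932), or 20 and 2 with scaling by totals alone.

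Among the lipid droplet genes, Plin2 (ENSMUSG00000028494), the coat protein perilipin 2, lay at 1050.3 and 1169 CPM in the untreated libraries and 239 and 259 CPM in the control libraries (log2 −2.16, SE 0.08, limma adjusted p = 1.78e-06). Both control libraries lay below both untreated ones, and among all 13171 genes the adjusted p of Plin2 was the smallest. Hilpda, an inhibitor of the lipase ATGL, went from 16.3 and 16.5 to 5.68 and 5.00 CPM (log2 −1.61, SE 0.14, limma adjusted p = 0.000102), and G0s2, another ATGL inhibitor, from 4.61 and 2.56 to 0.925 and 0.811 CPM (log2 −1.87, SE 0.35, limma adjusted p = 0.00520). ATGL itself, encoded by Pnpla2, went from 47.5 and 46.1 to 34.3 and 30.6 CPM (log2 −0.53, SE 0.13, limma adjusted p = 0.0169). Droplet coat, lipase inhibitors and lipase thus all lay lower in both control libraries. The call was lost for Pnpla2 without untreated 1, untreated 2 or control 2 (adjusted p up to 0.127).

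Angptl4, a secreted inhibitor of lipoprotein lipase, had the steepest fall of the list, at 19.9 and 23.3 CPM in the untreated libraries and 1.32 and 1.33 CPM in the control libraries (log2 −3.92, SE 0.32, limma adjusted p = 7.19e-05). Lpl, the lipase that it inhibits, moved the other way. It lay at 2271 and 2678 CPM in the untreated libraries and 3965 and 4416 CPM in the control libraries (log2 0.76, SE 0.10, limma adjusted p = 0.000804). The WT difference of Lpl was −0.40, and the interaction was called (adjusted p = 0.000109). With scaling by totals alone the WT difference of Lpl was −0.931 and its call held, whereas with the deposited scaling it missed the threshold (log2 −0.241).

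Some genes along the path of fatty acid oxidation fell as well. Of these, Cpt1a, Slc25a20, Acadl and Acaa2 also stand among the PPAR genes, so this is not a separate result. Cpt1a, which links fatty acids to carnitine for entry into mitochondria, lay at 177 and 195 CPM in the untreated libraries and 60.7 and 66.2 CPM in the control libraries (log2 −1.55, SE 0.09, limma adjusted p = 2.09e-05). Slc25a20, the carnitine carrier of the inner membrane, went from 38.5 and 39.8 to 20.3 and 21.9 CPM (log2 −0.89, SE 0.08, limma adjusted p = 0.000117). Within the mitochondrion, the long-chain dehydrogenase Acadl went from 92.5 and 97.7 to 64.7 and 58.1 CPM (log2 −0.63, SE 0.08, limma adjusted p = 0.000630) and the thiolase Acaa2 from 29.5 and 26.9 to 15.2 and 13.9 CPM (log2 −0.95, SE 0.11, limma adjusted p = 0.000535). None of these groups overlapped. Of the 28 oxidation genes 12 fell (42.9%, against 9.08% of all genes) and 16 did not pass, with a median of −0.248, and 5 to 7 fell with 1 library left out. At an unadjusted p under 0.05, 15 were lower and 0 higher. The thioesterases Acot1 and Acot2 differed by −1.85 and −1.31, but the pair are near-identical neighbours whose reads may have been shared. Their calls were lost for Acot1 without control 2 (adjusted p up to 0.0605) and for Acot2 without untreated 1 or control 2 (adjusted p up to 0.0700).

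Other members of the PPAR list that fell were Txnip, an inhibitor of thioredoxin and of glucose uptake (from 451 and 484 to 285 and 309 CPM, log2 −0.65, SE 0.11, limma adjusted p = 0.00325), and Cd36, the fatty acid and oxidised lipoprotein receptor (from 980.0 and 1084 to 808 and 852 CPM, log2 −0.31, SE 0.09, limma adjusted p = 0.0337). Pdk4, which shuts off pyruvate dehydrogenase, was below 1 CPM throughout (from 0.425 and 0.843 to 0.0330 and 0.130 CPM, log2 −2.01). Of the receptors, Ppard fell (log2 −0.48) and Pparg did not pass, at 6.80 and 6.23 CPM in the untreated libraries and 8.29 and 9.21 CPM in the control libraries (log2 0.42, adjusted p = 0.197). Fabp4, a fatty acid carrier in the cytosol, differed by −0.78 in KO and 1.30 in WT cells. Calls were lost for Cd36 without untreated 2, control 1 or control 2, with the deposited scaling, with no filter and with only the 4 KO libraries in the fit (adjusted p up to 0.201). They were also lost for Pdk4 without untreated 2 or control 1 (adjusted p up to 0.0775), for Ppard without untreated 1 or control 2 and with only the 4 KO libraries in the fit (adjusted p up to 0.143) and for Fabp4 without untreated 2, control 1 or control 2, with no filter and with only the 4 KO libraries in the fit (adjusted p up to 0.208).

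The fall was not of the same size in both genotypes for each gene. Plin2 fell further in KO than in WT cells (log2 −2.16 and −0.93, interaction adjusted p = 1.68e-05), as did Cpt1a (−1.55 and −0.94, adjusted p = 0.00427). Angptl4 fell less (−3.92 and −6.16, adjusted p = 0.00295). Hilpda fell in KO and rose by 1.65 in WT cells (interaction adjusted p = 1.4e-06). For Slc25a20 and Acaa2 the difference between genotypes did not pass (adjusted p = 0.395 and 0.240), except with scaling by totals alone, where KO was above WT for both (adjusted p = 0.0233 and 0.00345). The Acadl fall differed from WT (adjusted p = 0.000876), but not with scaling by totals alone (adjusted p = 0.247), and the Cpt1a difference then was lost as well (log2 −0.115, adjusted p = 0.419).

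**Figure D2:**
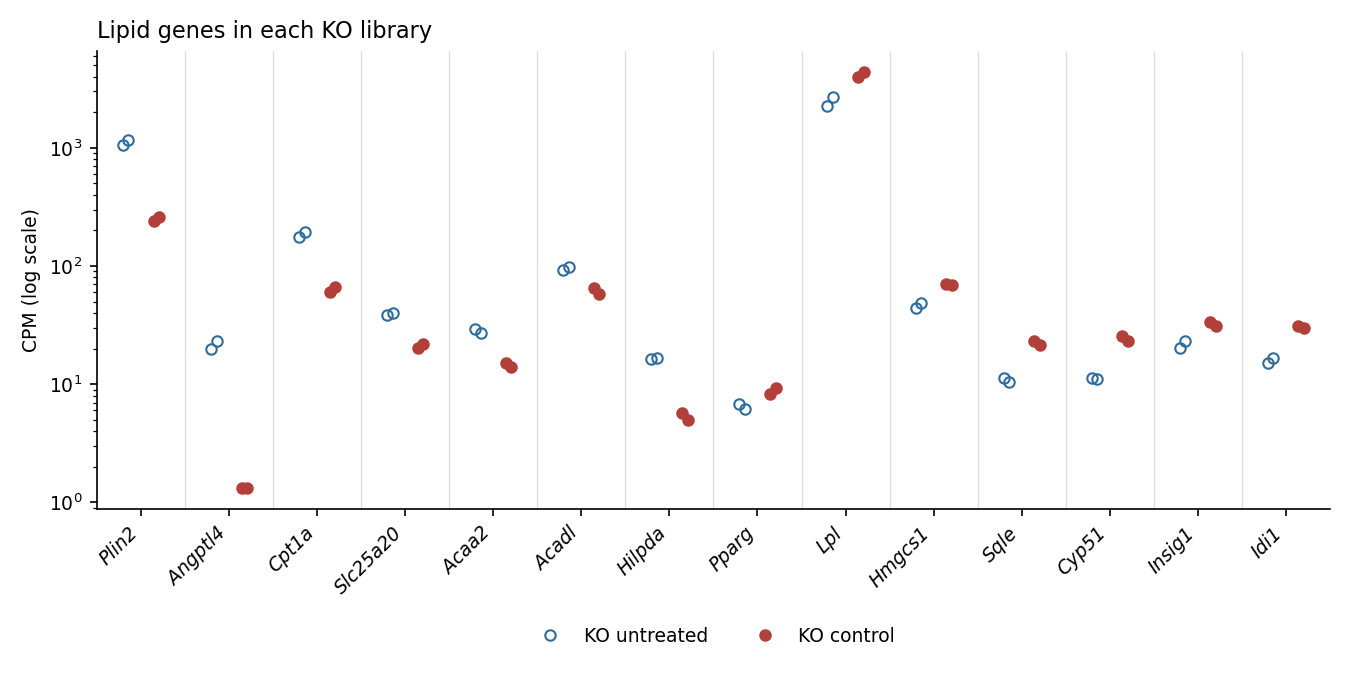
Level of 14 lipid genes in each KO library, in CPM on a log axis, with open circles for the 2 untreated and filled circles for the 2 control libraries. The PPAR genes from Plin2 to Hilpda lie lower in control cells, while Lpl and the cholesterol genes from Hmgcs1 to Idi1 lie higher, with no overlap. Pparg did not pass the test.

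Cholesterol synthesis genes moved upward. Of 25 tested members 14 rose (56.0%, against 10.9% of all genes), 1 fell and 10 did not pass, with a median of 0.559 and 11 to 13 higher with 1 library left out. The list follows the mevalonate pathway from acetyl groups to cholesterol, together with the uptake and control genes under SREBP2. Its 1 member that fell was Tm7sf2, a sterol reductase late in the pathway (from 6.02 and 7.13 to 4.56 and 3.93 CPM, log2 −0.62), and that call was lost for Tm7sf2 without any 1 of the 4 KO libraries, with no filter and with only the 4 KO libraries in the fit (adjusted p up to 0.216).

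At the head of the pathway, the synthase Hmgcs1 lay at 43.8 and 48.7 CPM in the untreated libraries and 69.8 and 69.5 CPM in the control libraries (log2 0.59, SE 0.10, limma adjusted p = 0.00282). Idi1, an isomerase of the isoprenoid steps, went from 15.02 and 16.8 to 31.2 and 29.7 CPM (log2 0.93). Both control libraries exceeded both untreated ones for each of these enzymes. Further down, Sqle, the squalene epoxidase, went from 11.3 and 10.5 to 23.4 and 21.3 CPM (log2 1.02), and Cyp51, a demethylase, from 11.3 and 11.1 to 25.4 and 23.4 CPM (log2 1.12). None of these groups overlapped either. Insig1, which holds SREBP2 in the endoplasmic reticulum and is itself its target, went from 20.3 and 23.0 to 33.5 and 31.0 CPM (log2 0.58).

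A sterol regulatory element, the binding motif of SREBP proteins, was searched as TCACNCCAC on both strands in RefSeq promoters (250 bases before to 50 after the start, GRCm38.p6). It was found in 1 of the 8 risen cholesterol genes with a promoter in the table and in 0 of the 10 other tested members, against 1.44% of 27025 genes. The 250 bases before the start of Hmgcs1 (chr13:119690101-119690350, plus strand) are shown because they hold that match, in capitals, from 137 bases before the start.
Hmgcs1: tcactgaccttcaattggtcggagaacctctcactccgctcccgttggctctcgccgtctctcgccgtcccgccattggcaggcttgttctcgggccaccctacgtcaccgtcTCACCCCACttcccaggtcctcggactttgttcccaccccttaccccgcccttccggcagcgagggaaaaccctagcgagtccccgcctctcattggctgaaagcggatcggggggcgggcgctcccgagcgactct

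The KO response was below the WT response for 11 of the 25 genes and above it for 2, or 7 and 5 with scaling by totals alone. Hmgcs1 differed by 1.95 in WT cells (interaction adjusted p = 3.5e-05). For the 14 genes of the list that rose in both genotypes, the KO rise in CPM was 18.6% to 104% of the WT rise, with a median of 29.8%, against 41.5% over the 1071 genes that rose in both. Sqle did not differ between genotypes beyond the threshold (KO minus WT −0.40, SE 0.23, interaction adjusted p = 0.183).

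Targets of LXR, the oxysterol receptor that raises cholesterol export, were mixed, with 5 higher (25%, against 10.9% of all genes), 3 lower (15%, against 9.08%) and 12 not passing of 20. With 1 library left out 2 to 4 rose (3 without untreated 1 and 2 without control 2) and 0 to 1 fell, and 3 rose with only the 4 KO libraries in the fit. The exporters Abca1 and Abcg1 went from 197 and 245 to 350.3 and 449 CPM (log2 0.85) and from 56.5 and 67.5 to 138 and 155 CPM (log2 1.24). Nr1h3, which encodes LXR alpha, went from 22.9 and 21.6 to 34.7 and 37.6 CPM (log2 0.69), and Srebf1, the SREBP1 gene, from 35.0 and 25.2 to 49.7 and 42.1 CPM (log2 0.62). Ch25h, which makes 25-hydroxycholesterol, stayed near the bottom of the range (from 0.523 and 0.0649 to 2.74 and 1.98 CPM, log2 2.92). Apoe, an abundant LXR target, did not pass (from 2508 and 2145 to 2049.8 and 2134 CPM, adjusted p = 0.656). Lower were the esterifying enzyme Soat1 (log2 −0.39), the ester hydrolase Nceh1 (−0.44) and the acyltransferase Lpcat3 (−0.30). All but Nr1h3 were sensitive to the fit. The threshold was missed for Abca1 without untreated 1 or control 2 and with no filter (adjusted p up to 0.166), for Abcg1 without untreated 1 or control 2 (adjusted p up to 0.0788) and for Srebf1 without untreated 2, control 1 or control 2 and with only the 4 KO libraries in the fit (adjusted p up to 0.156). The same held for Soat1 without untreated 2, control 1 or control 2 (adjusted p up to 0.167), for Nceh1 without any 1 of the 4 KO libraries and with no filter (adjusted p up to 0.207), for Lpcat3 without any 1 of the 4 KO libraries (adjusted p up to 0.116) and for Ch25h with only the 4 KO libraries in the fit.

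In fatty acid synthesis 7 of 17 tested genes rose (41.2%, against 10.9% of all genes) and 4 fell (23.5%, against 9.08%), which evened out to 4 and 4 without untreated 1 and to 3 and 3 without control 2. Fasn, the fatty acid synthase, lay at 27.7 and 23.0 CPM in the untreated libraries and 61.0 and 54.3 CPM in the control libraries (log2 1.19, SE 0.16, limma adjusted p = 0.000850), close to the WT difference of 1.14 (interaction adjusted p = 0.876). Me1, which supplies NADPH, went from 14.8 and 13.2 to 29.4 and 26.8 CPM (log2 1.00), and Scd2, a desaturase, from 60.4 and 71.6 to 112 and 125 CPM (log2 0.85). Scd2 fell in WT cells (log2 −0.73). The 4 that fell were Acss2, which activates acetate (from 12.1 and 14.2 to 7.66 and 7.04 CPM, log2 −0.83), the elongases Elovl5 (−0.53) and Elovl7 (−1.49), and the desaturase Fads1 (−0.69). Alternative fits lost the calls for Scd2 without untreated 1 or control 2 (adjusted p up to 0.0845) and for Elovl7 without untreated 2 or control 2 (adjusted p up to 0.0749).

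In the list of lipid uptake, storage and lipolysis 8 of 35 rose (22.9%, against 10.9% of all genes) and 9 fell (25.7%, against 9.08%), a split that turned to 7 and 6 with no filter and to 8 and 6 with only the 4 KO libraries in the fit. Without untreated 2 or control 2 it was 5 and 3, without untreated 1 it was 4 and 6, and without control 1 it was 4 and 4. Olr1, a receptor for oxidised LDL, went from 0.196 and 0.195 to 0.991 and 0.908 CPM (log2 1.83). Acsl1, an acyl-CoA synthetase, differed by 0.35 in KO and 3.01 in WT cells (interaction adjusted p = 2.13e-07), and Lpin1, a phosphatidate phosphatase, by −0.79 and −3.79 (adjusted p = 2.16e-05). Some of these calls did not hold, namely for Acsl1 without any 1 of the 4 KO libraries (adjusted p up to 0.0858) and for Lpin1 without any 1 of the 4 KO libraries (adjusted p up to 0.117).

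Inflammatory genes rose in KO cells, to levels far below those of WT cells in the same medium. Of 37 tested cytokines, chemokines and effector enzymes 16 rose (43.2%, against 10.9% of all genes), 2 fell and 19 did not pass, with a median of 0.465. With 1 library left out 9 to 13 rose (9 without control 2). In WT cells all 37 rose, with a median of 4.29, and for all 37 the KO response was below the WT response in the interaction test, 35 of them also with scaling by totals alone.

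Tnf, the central inflammatory cytokine, lay at 46.7 and 50.8 CPM in the untreated libraries and 133 and 149.7 CPM in the control libraries (log2 1.53, SE 0.08, limma adjusted p = 7.17e-06). In WT cells it went from 57.5 and 54.3 to 1100.3 and 1104 CPM (interaction adjusted p = 1.07e-07). Il1b, the interleukin 1 beta precursor, went from 9.72 and 12.5 to 32.1 and 40.2 CPM (log2 1.70, SE 0.19, limma adjusted p = 0.000366), against a WT difference of 6.71. Neither cytokine's KO groups overlapped. The chemokine genes Ccl3 and Ccl4 went from 78.1 and 83.5 to 175 and 166 CPM (log2 1.08) and from 48.3 and 50.8 to 149 and 146 CPM (log2 1.57). Cxcl10, an interferon-inducible chemokine, went from 5.56 and 3.89 to 22.4 and 27.9 CPM (limma adjusted p = 3.56e-05, WT log2 7.36).

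Acod1, which makes itaconate, lay at 153 and 175 CPM in the untreated libraries and 356 and 346 CPM in the control libraries (log2 1.10, SE 0.08, limma adjusted p = 3.62e-05), against a WT difference of 5.30. Nos2, the inducible nitric oxide synthase, remained near the floor of the data (from 1.54 and 1.43 to 3.63 and 2.56 CPM, log2 1.00), while its WT difference was 8.06. Il10, an anti-inflammatory cytokine, went from 10.8 and 10.02 to 21.5 and 21.4 CPM in KO (log2 1.04), against a WT difference of 2.43. Ccl5 and Cxcl9, with WT differences of 9.47 and 8.62, were at 3.24 CPM or less in every KO library (log2 0.96 and 1.49). Ccl2, a monocyte attractant, did not pass in KO cells (from 51.5 and 41.9 to 37.7 and 38.3 CPM, log2 −0.29, adjusted p = 0.186). The 2 that fell were Il1a, the interleukin 1 alpha gene (from 1.01 and 1.49 to 0.528 and 0.616 CPM, log2 −0.99), and Tnfsf9, the 4-1BB ligand (from 7.20 and 7.33 to 5.28 and 5.58 CPM, log2 −0.41). Calls were lost for Ccl5 without untreated 2, control 1 or control 2 (adjusted p up to 0.0974) and for Cxcl9 without untreated 1, control 1 or control 2, with a pseudocount of 0.5, with a pseudocount of 1 and in the rlog table (adjusted p up to 0.0925), and likewise for Il1a without untreated 2, control 1 or control 2, with a pseudocount of 0.5, with a pseudocount of 1, with no filter, with only the 4 KO libraries in the fit and in the rlog table (adjusted p up to 0.219) and for Tnfsf9 without any 1 of the 4 KO libraries and with only the 4 KO libraries in the fit (adjusted p up to 0.127).

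The list of NF-kB proteins and feedback regulators had the largest share of risen members among the lists with at least 15 tested genes. Of 24 genes 18 rose (against 10.9% of all genes), 1 fell and 5 did not pass, with a median of 0.638, and 16 to 17 rose with 1 library left out. In WT cells all 24 rose. Nfkb2, the p100 precursor of the p52 subunit, lay at 46.2 and 42.0 CPM in the untreated libraries and 89.9 and 88.9 CPM in the control libraries (log2 1.02, SE 0.12, limma adjusted p = 0.000566). The c-Rel gene Rel went from 36.0 and 40.7 to 74.1 and 79.9 CPM (log2 1.01) and Nfkb1, the p105 precursor, from 133 and 127 to 203 and 195 CPM (log2 0.61). Many other members are brakes on the pathway. Tnfaip3, the ubiquitin-editing protein A20, went from 51.3 and 59.6 to 88.1 and 103 CPM (log2 0.79), Tnip3, an A20 partner, from 65.2 and 69.8 to 131 and 138 CPM (log2 0.99), and Nfkbia, the inhibitor IkB alpha, from 154 and 136 to 214 and 193 CPM (log2 0.49). Nfkbiz, a nuclear cofactor of NF-kB, went from 191 and 203 to 399 and 399 CPM (log2 1.02), and Zfp36, which destabilises cytokine mRNAs, from 82.6 and 75.3 to 126 and 124 CPM (log2 0.66). Ier3, an early response gene, was the 1 that fell (from 25.4 and 17.9 to 13.6 and 11.6 CPM, log2 −0.76). The threshold was missed for Nfkbia without untreated 2, control 1 or control 2 and with no filter (adjusted p up to 0.146) and for Ier3 without untreated 1 or control 2 and with only the 4 KO libraries in the fit (adjusted p up to 0.119).

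The KO rise in CPM was also set beside the WT rise of the same gene, as a description with no test. Across the 18 NF-kB genes that rose in both genotypes it was 1.64% to 57.3% of the WT rise, with a median of 13%. Across the 16 inflammatory genes it was 0.114% to 25%, with a median of 2.90%, so the ranges overlapped. The 27 interferon-stimulated genes gave 0.544% to 7.42%, with a median of 2.93%, beside a median of 41.5% over all 1071 genes that rose in both.

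The NF-kB consensus was found in the promoters of 6 of the 14 risen members with a promoter in the table and in 3 of the 6 others, against 5.14% of all genes. The bases before the start of Nfkb2 (chr19:46304487-46304736, plus strand, GRCm38.p6) are shown as an example. Capitals mark 3 matches, from 39, 38 and 11 bases before the start, the first and the second of which overlap.
Nfkb2: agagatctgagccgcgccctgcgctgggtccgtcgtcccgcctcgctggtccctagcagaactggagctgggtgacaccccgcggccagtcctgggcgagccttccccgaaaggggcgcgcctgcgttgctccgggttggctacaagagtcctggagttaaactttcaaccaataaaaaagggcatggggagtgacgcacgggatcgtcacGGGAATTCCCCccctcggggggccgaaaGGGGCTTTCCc

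Interferon-stimulated genes also rose. Of 49 tested 27 rose (55.1%, against 10.9% of all genes), 1 fell and 21 did not pass, with a median of 0.593, and 46 of the 49 differences were above 0. Leaving out 1 library gave 15 (without untreated 1), 27 (without untreated 2), 30 (without control 1) and 14 (without control 2) that rose. In WT cells all 49 rose (median 3.73), and the KO response was below WT for all 49, and for 48 with scaling by totals alone.

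Ifit1, which binds viral RNA caps, lay at 26.0 and 33.0 CPM in the untreated libraries and 83.3 and 109 CPM in the control libraries (log2 1.70, SE 0.19, limma adjusted p = 0.000329). Cmpk2, a mitochondrial nucleotide kinase, went from 20.3 and 21.9 to 74.4 and 83.2 CPM (log2 1.89, SE 0.13, limma adjusted p = 2.61e-05), and Usp18, which removes ISG15 from proteins and damps the interferon receptor, from 11.7 and 15.2 to 36.0 and 46.0 CPM (log2 1.60). Each lay well above its untreated libraries, yet the WT differences were 4.81, 5.59 and 4.58. The guanylate-binding GTPases Gbp2 and Gbp5 went from 15.4 and 14.9 to 45 and 45.4 CPM (log2 1.57) and from 4.84 and 4.44 to 13.3 and 12.7 CPM (log2 1.47), and Rsad2, the antiviral enzyme viperin, from 82.9 and 109 to 203 and 251 CPM (log2 1.25). Ifi205, of a family of similar genes whose reads may have been shared, went from 0.916 and 1.95 to 6.50 and 7.07 CPM (log2 2.26). Smaller differences were seen for the ubiquitin-like modifier Isg15 (log2 0.92) and for the transcription factor Irf7 (0.74). Ly6e, a membrane protein, was the 1 that fell (from 409 and 508 to 300.5 and 366 CPM, log2 −0.46). Alternative fits lost the calls for Isg15 without untreated 1 or control 2 (adjusted p up to 0.0668), for Irf7 without untreated 1 or control 2 and with no filter (adjusted p up to 0.189) and for Ly6e without untreated 2, control 1 or control 2, with no filter and with only the 4 KO libraries in the fit (adjusted p up to 0.272).

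The response element bound by the interferon-activated complex ISGF3 was searched on both strands as TTTC repeated after 2 bases of any kind. It was found in 14 of the 22 risen members with a promoter and in 9 of the 15 other tested members, against 3.99% of all genes. The bases before the start of Ifit1 (chr19:34640639-34640888, plus strand, GRCm38.p6) hold 2 matches, in capitals, from 104 and 85 bases before the start.
Ifit1: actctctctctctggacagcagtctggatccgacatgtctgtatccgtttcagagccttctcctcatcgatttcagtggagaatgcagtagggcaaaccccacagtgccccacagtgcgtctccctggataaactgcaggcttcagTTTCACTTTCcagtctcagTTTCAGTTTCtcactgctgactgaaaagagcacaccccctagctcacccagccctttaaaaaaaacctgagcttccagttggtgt

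**Figure D3:**
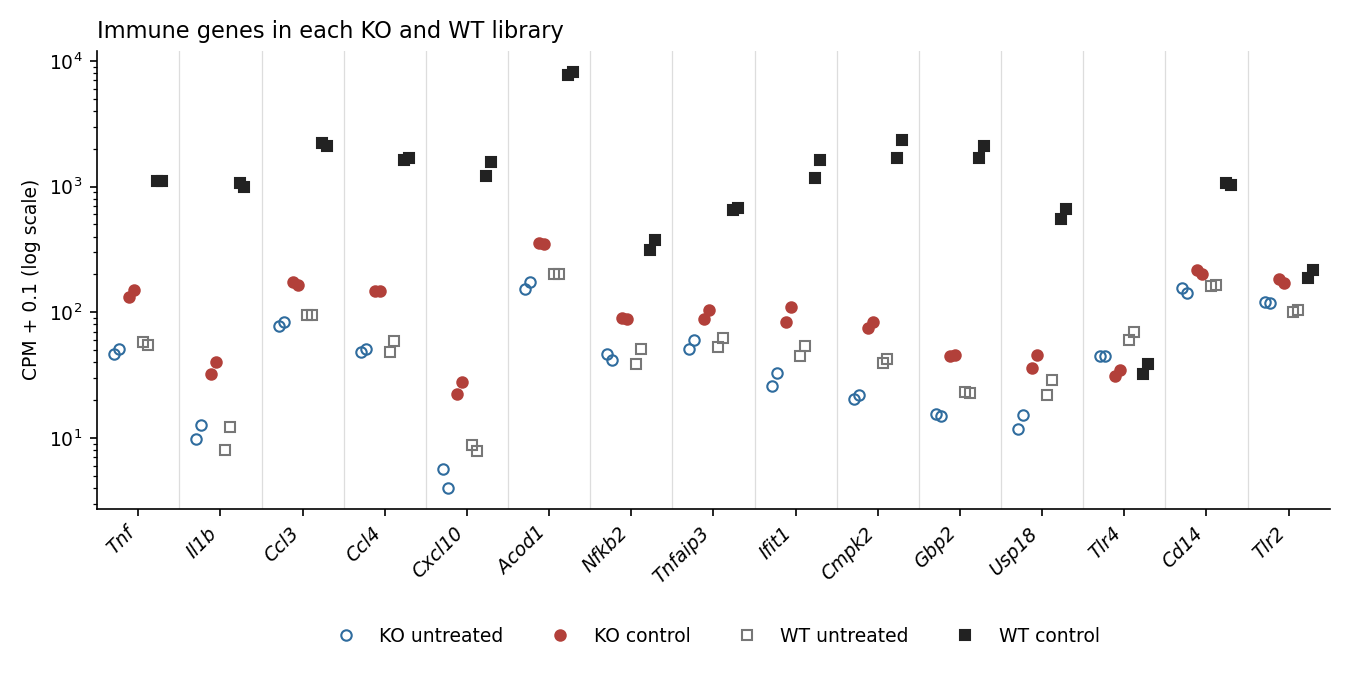
Level of 15 immune genes in each library of KO (circles) and WT cells (squares), as CPM + 0.1 on a log axis, with open symbols for untreated and filled symbols for control libraries. KO control libraries lie above KO untreated ones for every gene but Tlr4. WT control libraries lie above KO control for the cytokine and interferon genes, as for Tnf at 1100.3 and 1104 against 133 and 149.7 CPM.

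Within the Toll-like receptor pathway the members did not move as 1 block, with 10 of 38 higher (26.3%, against 10.9% of all genes), 3 lower (7.89%, against 9.08%) and 25 not passing (median 0.0826). With 1 library left out 4 to 8 rose, the lowest count without control 2. Tlr2, the receptor for bacterial lipopeptides, lay at 122 and 118 CPM in the untreated libraries and 185 and 169 CPM in the control libraries (log2 0.56, SE 0.08, limma adjusted p = 0.00148). Among the co-receptors, Cd14, which hands lipopolysaccharide to TLR4, went from 157 and 143 to 217 and 201 CPM (log2 0.48, WT 2.68), and Cd180, a TLR4-like receptor that restrains it, from 196 and 239 to 348 and 397 CPM (log2 0.78, WT 0.98). The adaptors Myd88 and Tirap went from 66.8 and 62.5 to 99.4 and 97.7 CPM (log2 0.61) and from 21.7 and 23.3 to 36.1 and 38.8 CPM (log2 0.73). The WT difference was larger for Cd14 and Myd88 (interaction adjusted p = 6.42e-07 and 3.78e-06), but did not differ beyond the threshold for Cd180 and Tirap (0.462 and 0.456). For Tirap the KO response was above WT with scaling by totals alone (adjusted p = 0.00143). Besides Tlr4, the members that fell were Lbp, the lipopolysaccharide-binding protein (from 30.8 and 31.1 to 17.5 and 18.8 CPM, log2 −0.77, SE 0.12, limma adjusted p = 0.00180), and Tlr5, the flagellin receptor (from 2.42 and 3.08 to 0.726 and 0.616 CPM, log2 −1.88). The call was lost for Cd180 without control 2 (adjusted p up to 0.0536).

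Growth-related genes rose as well. Of 30 tested G1 cyclin, MYC and ribosome biogenesis genes, 16 rose (53.3%, against 10.9% of all genes), 2 fell and 12 did not pass, with a median of 0.404, but 12 rose with scaling by totals alone and 6 to 10 with 1 library left out. Myc, the transcription factor that drives ribosome production, lay at 17.8 and 14.6 CPM in the untreated libraries and 40.3 and 34.6 CPM in the control libraries (log2 1.21, SE 0.15, limma adjusted p = 0.000657). Nop58 and Nop56, core proteins of small nucleolar RNA particles, went from 27.1 and 25.4 to 49.5 and 52.1 CPM (log2 0.95) and from 34.2 and 36.4 to 60.3 and 63.4 CPM (log2 0.81), and the nucleolar protein gene Ncl from 348 and 340.5 to 459 and 459 CPM (log2 0.42). The WT differences of Myc, Nop58 and Nop56 were 1.18, 0.62 and 0.86, with interaction adjusted p = 0.932, 0.240 and 0.877 (0.0126 for Nop58 with scaling by totals alone, where the WT calls of Nop58 and Nop56 were lost). The KO rise had a median of 87.0% of the WT rise over 10 genes that rose in both. With scaling by totals alone, however, the KO response was above WT for 20 of the 30 genes, in place of 3. Over all 13171 genes these counts were 6518 and 2904. Some of these calls did not hold, namely for Nop56 without untreated 1 or control 2 (adjusted p up to 0.0761) and for Ncl without any 1 of the 4 KO libraries, with scaling by totals alone, with the deposited scaling and with no filter (adjusted p up to 0.126).

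The 2 cyclins that fell were Ccnd2 (from 19.1 and 20.9 to 7.36 and 7.92 CPM, log2 −1.38, SE 0.12, limma adjusted p = 0.000117) and Ccnd3 (from 89.9 and 72.1 to 64.1 and 55.3 CPM, log2 −0.43), while Ccnd1, another D-type cyclin, did not pass (from 171 and 150.1 to 131 and 158 CPM, adjusted p = 0.498). Ccnd2 rose by 2.07 in WT cells. Few proliferation genes were called in KO cells, although 30 of 34 S phase and 25 of 30 mitosis differences were below 0. Of 34 S phase genes 3 fell (8.82%, near the 9.08% of all genes), and 0 to 2 with 1 library left out. The 3 were Pola1, a DNA polymerase subunit (log2 −0.71), the cyclin Ccne1 (−0.60) and the transcription factor E2f2 (−0.53). Of 30 mitosis genes limma called 0 in either direction, with 0 at an unadjusted p under 0.05 and 0 in the rlog table, and their median difference was −0.213. That median was −0.497 without control 1 and −0.0900 without untreated 1, and it turned to 0.0859 without control 2. With that spread between libraries, the absence of calls does not show that the change in mitosis genes was small. In WT cells 27 and 29 of these genes fell, and the responses differed for 22 and 27. Mki67, the Ki-67 antigen, went from 386 and 338 to 343 and 229.7 CPM (log2 −0.36, SE 0.31, adjusted p = 0.461), and the groups overlapped. Calls were lost for Ccnd3 without untreated 1, control 1 or control 2, with no filter and with only the 4 KO libraries in the fit (adjusted p up to 0.277) and for Pola1 without any 1 of the 4 KO libraries, with scaling by totals alone, with the deposited scaling and with no filter (adjusted p up to 0.206). The same was true for Ccne1 without untreated 1, untreated 2 or control 2, with the deposited scaling, with no filter and with only the 4 KO libraries in the fit (adjusted p up to 0.285) and for E2f2 without untreated 1, untreated 2 or control 2, with no filter and with only the 4 KO libraries in the fit (adjusted p up to 0.228).

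Actin and adhesion genes under SRF and its MRTF cofactors, which respond to serum, rose in 14 of 24 cases (58.3%, against 10.9% of all genes), with 2 lower and a median of 0.433. Without untreated 2 or control 1 the count was 6, without control 2 it was 7 and without untreated 1 it was 12. Vcl, the adhesion protein vinculin, lay at 67.8 and 62.6 CPM in the untreated libraries and 182 and 166 CPM in the control libraries (log2 1.41, SE 0.13, limma adjusted p = 0.000124), and its WT difference was 1.21 (interaction adjusted p = 0.399, which became 0.0132 when libraries were scaled by totals alone). Itga5, the fibronectin receptor subunit, went from 105 and 114 to 219 and 236 CPM (log2 1.06, WT 3.06), and Zyx, the focal adhesion protein zyxin, from 81.3 and 76.3 to 122 and 117 CPM (log2 0.60). Actb, beta-actin, went from 4277 and 3987 to 5975 and 5867 CPM (log2 0.52). Tpm1, a tropomyosin, rose in KO (log2 0.61) against a WT difference of −0.27, whose call the deposited scaling removed. The 2 that fell were Thbs1, the matrix protein thrombospondin 1 (from 321 and 385 to 94.3 and 97.7 CPM, log2 −1.87, SE 0.24, limma adjusted p = 0.000766), and Tagln2, an actin-bundling protein (log2 −0.33). Thbs1 rose by 1.74 in WT cells (interaction adjusted p = 2.16e-05). The threshold was missed for Actb without untreated 2, control 1 or control 2 (adjusted p up to 0.0551) and for Tagln2 without any 1 of the 4 KO libraries (adjusted p up to 0.131).

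The CArG box, bound by SRF, was found in 4 of the 13 risen actin genes with a promoter and in 2 of the 6 other tested members, against 1.81% of all genes. The bases before the start of Vcl (chr14:20929148-20929397, plus strand, GRCm38.p6) carry 1 match, in capitals, from 227 bases before the start.
Vcl: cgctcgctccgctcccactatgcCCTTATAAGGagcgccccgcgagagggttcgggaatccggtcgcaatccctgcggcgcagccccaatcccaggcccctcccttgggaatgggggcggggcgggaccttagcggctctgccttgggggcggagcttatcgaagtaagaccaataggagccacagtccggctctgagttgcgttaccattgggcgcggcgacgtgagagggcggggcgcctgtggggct

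In the list of immediate early genes, 13 of 37 members rose (35.1%, against 10.9% of all genes) and 2 fell, which left 22 short of the threshold. Only 7 rose without control 2, and 9 without untreated 2 or control 1, while 4 fell with scaling by totals alone. Egr1, an early growth response factor, went from 2.65 and 2.82 to 6.54 and 7.59 CPM (log2 1.33, WT 4.02), and Phlda1, a pleckstrin homology protein, from 2.06 and 1.43 to 5.55 and 5.00 CPM (log2 1.56). Fos, an AP-1 subunit, did not pass at this time (from 48.5 and 45.7 to 55.4 and 59.2 CPM, adjusted p = 0.0630). The 2 that fell were Dusp6, the ERK phosphatase (from 33.4 and 28.3 to 16.3 and 18.2 CPM, log2 −0.83), and Klf10 (from 40.2 and 46.5 to 27.3 and 25.7 CPM, log2 −0.71). The call was lost for Egr1 without control 2 (adjusted p up to 0.0613).

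Among TGF-beta and BMP responsive genes 6 of 22 rose (27.3%, against 10.9% of all genes) and 4 fell (18.2%, against 9.08%). The inhibitors of DNA binding rose together, with Id1 from 2.39 and 1.01 to 9.67 and 6.75 CPM (log2 2.30, SE 0.36, limma adjusted p = 0.00218), Id3 from 23.7 and 15.1 to 62.4 and 43.2 CPM (log2 1.45) and Id2 from 114 and 115 to 195 and 187 CPM (log2 0.74). Skil, a SMAD corepressor, went from 87.6 and 93.5 to 206 and 227 CPM (log2 1.26, SE 0.09, limma adjusted p = 3.56e-05), and Tgfbi, a matrix protein induced by TGF-beta, from 110.3 and 106 to 228 and 219.7 CPM (log2 1.05). The 4 that fell were the receptor Tgfbr2 (log2 −0.60), Smad3 (−0.50), the scaffold Nedd9 (−0.93) and Klf10 (−0.71). WT differences of Id1, Id3 and Tgfbi were 1.92, 1.30 and 1.25, and did not differ from KO beyond the threshold (interaction adjusted p = 0.570, 0.708 and 0.381). The call was lost for Tgfbr2 without any 1 of the 4 KO libraries and with no filter (adjusted p up to 0.160).

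Genes of the unfolded protein response fell in KO cells. Of 24 tested 12 fell (against 9.08% of all genes) and 12 did not pass, with a median of −0.335, and at an unadjusted p under 0.05 the counts were 15 lower and 0 higher. With 1 library left out 3 to 4 fell, and 7 fell with no filter. WT cells had 9 higher and 7 lower, near the WT shares of all genes (33.1% and 32.8%). With scaling by totals alone the counts turned to 2 and 15, beside 2267 and 7689 of all 13171 genes. Hspa5, the endoplasmic reticulum chaperone BiP, lay at 877 and 869.9 CPM in the untreated libraries and 670.0 and 652 CPM in the control libraries (log2 −0.40, SE 0.09, limma adjusted p = 0.0122). The sensor IRE1, encoded by Ern1, went from 71.6 and 79.3 to 44.9 and 46.8 CPM (log2 −0.72), and Xbp1, the factor whose mRNA it splices, from 139 and 150.3 to 99.3 and 96.8 CPM (log2 −0.56). Manf, a secreted protein of this response, went from 79.3 and 73.4 to 56.6 and 52.8 CPM (log2 −0.48). Hspa5 rose in WT cells (log2 0.73, interaction adjusted p = 6.48e-05), a WT call that scaling by totals alone removed while the interaction held (adjusted p = 0.00339). Calls in KO cells were lost for Hspa5 without any 1 of the 4 KO libraries (adjusted p up to 0.0908), for Xbp1 without untreated 2 or control 2 (adjusted p up to 0.0523) and for Manf without any 1 of the 4 KO libraries and with no filter (adjusted p up to 0.199).

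The endoplasmic reticulum stress element, CCAAT and CCACG 9 bases apart, searched on both strands, was in 3 of the 10 fallen members with a promoter and in 5 of the 11 others, against 0.137% of all genes. The bases before the start of Hspa5 (chr2:34771840-34772089, plus strand, GRCm38.p6) are shown with the match in capitals, from 65 bases before the start.
Hspa5: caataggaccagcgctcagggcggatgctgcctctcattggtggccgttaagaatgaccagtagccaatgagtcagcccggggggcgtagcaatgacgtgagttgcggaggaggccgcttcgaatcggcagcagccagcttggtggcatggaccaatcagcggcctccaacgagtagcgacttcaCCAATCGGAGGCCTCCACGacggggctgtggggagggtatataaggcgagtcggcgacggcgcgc

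Amino acid supply genes and other targets of ATF4, the factor of the integrated stress response, gave 11 lower (31.4%, against 9.08% of all genes) and 2 higher of 35. Ddit3, the stress factor CHOP, went from 36.5 and 34.9 to 18.6 and 15.8 CPM (log2 −1.05, SE 0.11, limma adjusted p = 0.000192), and Trib3, a pseudokinase that CHOP and ATF4 induce, from 29.4 and 22.8 to 10.7 and 6.75 CPM (log2 −1.60, SE 0.19, limma adjusted p = 0.000535). Atf4 itself went from 196 and 193 to 157 and 130.0 CPM (log2 −0.44). The 2 that rose were Slc7a11 (from 29.1 and 37.8 to 54.4 and 45.9 CPM, log2 0.59) and Slc3a2 (log2 0.28), which together form the cystine importer. Alternative fits lost the calls for Atf4 without untreated 1, untreated 2 or control 2 and with only the 4 KO libraries in the fit (adjusted p up to 0.147), for Slc7a11 without untreated 1, control 1 or control 2, with no filter and with only the 4 KO libraries in the fit (adjusted p up to 0.211) and for Slc3a2 without any 1 of the 4 KO libraries (adjusted p up to 0.0947), and the list had 5 members lower without untreated 1, 7 without untreated 2 and 3 without control 2.

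Cytosolic heat shock genes lay higher. In all 16 tested genes both control libraries exceeded both untreated ones, against 32.2% of all genes, and 6 rose (37.5%, against 10.9% of all genes) while 10 did not pass (median 0.313). Hspa8, the constitutive HSP70, went from 2094 and 2112 to 2854 and 2953 CPM (log2 0.47), Hsph1, its exchange factor, from 28.5 and 28.2 to 45.9 and 51.3 CPM (log2 0.77), and the cochaperone gene Dnaja1 from 101 and 102 to 139 and 148 CPM (log2 0.50). The inducible HSP70 genes Hspa1a and Hspa1b, near-identical copies whose reads may have been split, were at 3.27 CPM or less (log2 1.93 and 2.74). Of 27 NRF2 antioxidant genes 10 rose (37.0%, against 10.9% of all genes) and 17 did not pass, while 7 rose without either untreated library and 5 without either control library. Those that rose included the glutathione synthesis genes Gclm (from 294 and 319.6 to 478 and 469 CPM, log2 0.63, SE 0.07, limma adjusted p = 0.000348) and Gclc (from 28.1 and 29.1 to 41.8 and 44.4 CPM, log2 0.59) and the sulfiredoxin gene Srxn1 (from 141 and 159 to 214 and 216 CPM, log2 0.52). Gclm did not pass in WT cells (log2 0.03, interaction adjusted p = 0.000874), but fell there with scaling by totals alone (log2 −0.499, adjusted p = 0.000151). Some of these calls did not hold, namely for Hspa8 without control 2 (adjusted p up to 0.0669) and for Hspa1a without untreated 2 or control 1 (adjusted p up to 0.0968).

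Glycolysis and hypoxia-inducible genes split evenly only at the threshold, with 5 higher and 5 lower of 30 (16.7% each, against 10.9% and 9.08% of all genes). The split became 4 and 9 with scaling by totals alone and 4 and 7 in the rlog table. At an unadjusted p under 0.05 it was 5 higher and 11 lower, and 23 of the 30 differences were below 0. With 1 library left out 2 rose and 3 to 4 fell, and 3 rose with no filter. Vegfa, the vascular growth factor, lay at 78.3 and 82.1 CPM in the untreated libraries and 11.4 and 14.5 CPM in the control libraries (log2 −2.63, SE 0.12, limma adjusted p = 7.17e-06). The muscle-type phosphofructokinase Pfkm went from 21.2 and 22.0 to 12.9 and 11.9 CPM (log2 −0.80) and Bnip3, a mitophagy receptor, from 77.7 and 79.4 to 57.1 and 56.3 CPM (log2 −0.47), while Hif1a (log2 −0.41) and the aldolase Aldoc (−0.43) also fell. Ndrg1, a stress-responsive gene, went from 412 and 441 to 797 and 793 CPM (log2 0.90, SE 0.06, limma adjusted p = 3.33e-05). The glucose transporter Slc2a1 went from 90.6 and 78.2 to 122 and 118 CPM (log2 0.51) and the hexokinase Hk2 from 99.98 and 96.3 to 116 and 123 CPM (log2 0.28). Adm, which encodes adrenomedullin, and Ankrd37 were the other members that rose (log2 1.26 and 0.44). WT cells had 23 higher and 6 lower, or 14 and 8 with scaling by totals alone. In the TCA cycle and respiratory chain 2 of 35 fell (5.71%, against 9.08% of all genes), Idh1 (log2 −0.61) and Sdhd (−0.35), and 33 did not pass. Calls were lost for Hif1a without untreated 2, control 1 or control 2 (adjusted p up to 0.154), for Aldoc without any 1 of the 4 KO libraries (adjusted p up to 0.109), for Hk2 without any 1 of the 4 KO libraries and with the deposited scaling (adjusted p up to 0.148) and for Sdhd without untreated 2, control 1 or control 2 (adjusted p up to 0.0730). They were also lost for Adm without any 1 of the 4 KO libraries and with no filter (adjusted p up to 0.172) and for Ankrd37 without any 1 of the 4 KO libraries, with scaling by totals alone, with median-of-ratios scaling, with the deposited scaling, with no filter, with only the 4 KO libraries in the fit and in the rlog table (adjusted p up to 0.247).

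Surface receptors and macrophage state genes moved in both directions. Of 27 macrophage identity genes 4 rose (14.8%, against 10.9% of all genes) and 8 fell (29.6%, against 9.08%), and with 1 library left out 2 to 4 rose and 4 to 6 fell. The chemokine receptor gene Ccr2 fell from 76.3 and 89.4 to 29.7 and 34.3 CPM (log2 −1.37, SE 0.11, limma adjusted p = 6.31e-05). Ccr1, which the lists do not hold, had a still larger fall, from 48.9 and 49.6 to 6.93 and 7.59 CPM (log2 −2.75, SE 0.13, limma adjusted p = 7.17e-06). Cx3cr1, the fractalkine receptor, rose from 16.8 and 12.9 to 51.3 and 40.1 CPM (log2 1.62). The Fc receptor gene Fcgr3 went from 303 and 304 to 148 and 152 CPM (log2 −1.02, SE 0.08, limma adjusted p = 5.36e-05), the integrin gene Itgam from 2043 and 2176 to 1485 and 1527 CPM (log2 −0.49), and Fcgr1, Cd63, Cd68 and Cd80 differed by −0.45, −0.25, −0.35 and −0.56. Besides Cx3cr1, the lineage factor gene Spi1 (log2 0.58), Csf1r (0.39) and Adgre1 (0.31) rose. The threshold was missed for Fcgr1 without untreated 2 or control 1 and with only the 4 KO libraries in the fit (adjusted p up to 0.143), for Cd63 without any 1 of the 4 KO libraries, with the deposited scaling and with no filter (adjusted p up to 0.190), for Cd68 without any 1 of the 4 KO libraries, with median-of-ratios scaling, with the deposited scaling, with no filter, with only the 4 KO libraries in the fit and in the rlog table (adjusted p up to 0.289) and for Cd80 without untreated 2 or control 1 (adjusted p up to 0.0784). The calls were lost, too, for Spi1 without untreated 2 or control 1 (adjusted p up to 0.0769), for Csf1r without control 2 (adjusted p up to 0.0618) and for Adgre1 without any 1 of the 4 KO libraries, with scaling by totals alone, with median-of-ratios scaling, with the deposited scaling, with a pseudocount of 0.5, with a pseudocount of 1, with no filter, with only the 4 KO libraries in the fit and in the rlog table (adjusted p up to 0.244).

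Alternative activation genes gave 6 lower (33.3%, against 9.08% of all genes) and 2 higher of 18 (median −0.382), and without each library in turn 6 fell and 0 to 1 rose. Arg1, arginase 1, lay at 42.8 and 46.1 CPM in the untreated libraries and 9.34 and 10.2 CPM in the control libraries (log2 −2.18, SE 0.13, limma adjusted p = 2.09e-05). The mannose receptor gene Mrc1 went from 551 and 573 to 205 and 206 CPM (log2 −1.45, SE 0.07, limma adjusted p = 7.17e-06), the lectin gene Clec10a from 27.4 and 25.6 to 9.67 and 8.11 CPM (log2 −1.57) and F13a1, a coagulation factor subunit, from 354 and 385 to 201 and 204 CPM (log2 −0.87). None of these groups overlapped. Cd163, the haemoglobin scavenger receptor, was at 1.52 CPM or less in all libraries (log2 −1.45), and Tgm2, a transglutaminase, went from 182 and 176 to 90.8 and 105 CPM (log2 −0.87). The 2 that rose were the chemokine gene Ccl24 (from 0.294 and 0.389 to 0.991 and 1.14 CPM, log2 1.40) and Stat6 (log2 0.25). Arg1 fell further in KO than in WT cells (WT −0.99, interaction adjusted p = 0.000661), while Mrc1 did not differ beyond the threshold (WT −1.64, 0.152, and 0.000437 with scaling by totals alone). In antigen presentation 3 of 22 rose and 4 fell (13.6% and 18.2%, against 10.9% and 9.08% of all genes), which became 1 to 2 and 2 to 3 with 1 library left out and 1 and 3 with no filter. Those that rose were Cd40 (log2 0.91), H2-Q4 (0.73, of a family of similar genes) and Psmb10 (0.50). The 4 that fell were Cd80 (−0.56), H2-Ab1 (−0.69), H2-DMa (−0.87) and H2-DMb1 (−0.65). Alternative fits lost the calls for Ccl24 without any 1 of the 4 KO libraries and with no filter (adjusted p up to 0.141), for Stat6 without any 1 of the 4 KO libraries, with scaling by totals alone, with median-of-ratios scaling, with the deposited scaling, with no filter, with only the 4 KO libraries in the fit and in the rlog table (adjusted p up to 0.263), for H2-Q4 without any 1 of the 4 KO libraries, with median-of-ratios scaling, with no filter and in the rlog table (adjusted p up to 0.224) and for Psmb10 without untreated 2, control 1 or control 2 and with no filter (adjusted p up to 0.211). They were lost as well for Cd80 without untreated 2 or control 1 (adjusted p up to 0.0784), for H2-Ab1 without untreated 1, control 1 or control 2, with no filter and with only the 4 KO libraries in the fit (adjusted p up to 0.226) and for H2-DMb1 without control 2 (adjusted p up to 0.0605).

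Sums of neutrophil and of erythroid and platelet markers were lower in both control libraries. The mast cell and basophil sum was higher there, at 0.714 CPM or less throughout. Sums of dendritic, B, T and NK, and stromal and endothelial markers overlapped between the groups. The part of other marrow cells in the results was not tested. In a bulk sample, fewer cells of a type and less RNA per cell cannot be told apart. The 16 neutrophil markers in the table summed to 592.7 and 596.3 CPM in untreated and 451.4 and 468.3 CPM in control cells. Nearly all of that difference lay in Mmp9 and Mmp8, and the other markers hardly moved as a sum. Of the 14 tested, 4 fell (28.6%, against 9.08% of all genes), and 2 to 3 with 1 library left out, of which the metalloproteinase genes Mmp9 (from 171 and 147 to 81.6 and 85.5 CPM, log2 −0.92) and Mmp8 (from 179 and 185 to 129.8 and 119 CPM, log2 −0.55) are also made by macrophages. The granule genes Ngp and Ltf were at 6.09 CPM or less (log2 −1.02 and −0.94). Erythroid and platelet markers summed to 464.0 and 384.3 CPM untreated and 237.3 and 218.6 CPM in control cells, with the erythroid gene Alas2 among 2 at 0 in all 4. Most of that sum was Pf4, platelet factor 4 (from 384 and 290.3 to 218 and 199 CPM, log2 −0.68), and Ppbp, another platelet chemokine, went from 78.6 and 93.1 to 18.1 and 18.7 CPM (log2 −2.21). Some of these calls did not hold, namely for Ngp without any 1 of the 4 KO libraries (adjusted p up to 0.117), for Ltf without untreated 1, untreated 2 or control 2 and with no filter (adjusted p up to 0.159) and for Pf4 without untreated 1 or control 2 (adjusted p up to 0.0728).

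Dendritic cell markers summed to 331.4 to 392.5 CPM in untreated and 315.4 to 334.7 CPM in control cells, where 1 of 9 fell (Irf8, log2 −0.40). B cell markers summed to 107.5 to 117.3 CPM with Pax5 among 2 at 0, and 1 of 2 tested rose (Ighm, log2 0.29). Mast cell and basophil markers summed to 0.714 CPM or less with 7 of 11 at 0, and 1 of 3 rose (Hdc, which forms histamine, log2 1.02). Stromal and endothelial markers summed to 36.1 to 43.9 CPM, and 1 of 13 rose (Cdh5, log2 1.17). Calls were lost for Irf8 without any 1 of the 4 KO libraries and with no filter (adjusted p up to 0.157) and for Ighm without any 1 of the 4 KO libraries, with scaling by totals alone, with the deposited scaling and with no filter (adjusted p up to 0.187). They were lost also for Hdc without untreated 1, control 1 or control 2, with a pseudocount of 1 and with only the 4 KO libraries in the fit (adjusted p up to 0.0942) and for Cdh5 without untreated 2, control 1 or control 2, with a pseudocount of 0.5, with a pseudocount of 1, with no filter and with only the 4 KO libraries in the fit (adjusted p up to 0.216).

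Genes outside these lists moved as well. Fnbp1l, a membrane-bending protein of actin assembly, rose from 105 and 116 to 332 and 352 CPM (log2 1.63, SE 0.09, limma adjusted p = 7.66e-06). Gpr84, a receptor for medium-chain fatty acids, rose from 6.77 and 5.51 to 40.4 and 41.7 CPM (log2 2.73, SE 0.21, limma adjusted p = 5.47e-05), and Hcar2, the receptor for niacin and beta-hydroxybutyrate, from 2.16 and 2.30 to 10.1 and 7.92 CPM (log2 1.95). Both stood higher in WT control cells (WT log2 6.10 and 4.88). Slc18a1, a vesicular monoamine transporter, rose from 0.752 and 0.616 to 6.21 and 5.58 CPM (log2 2.94), the ephrin receptor gene Epha4 from 1.54 and 1.69 to 7.66 and 8.01 CPM (log2 2.21), and the calcium pump gene Atp2b4 from 3.89 and 3.79 to 15.1 and 15.9 CPM (log2 1.98). The early activation antigen gene Cd69 rose from 4.84 and 4.22 to 17.04 and 18.9 CPM (log2 1.97, WT 5.50). Slc18a1 rose more in KO than in WT cells (WT 1.24, interaction adjusted p = 0.000715), as did Olfml3, which encodes a secreted protein (from 8.54 and 7.36 to 28.6 and 29.0 CPM, log2 1.85, interaction adjusted p = 0.00334), whose WT difference (0.44) did not pass but was called with the deposited scaling (0.594).

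Genes outside the lists that fell included Asb4, a subunit of a ubiquitin ligase (from 8.24 and 7.56 to 0.726 and 0.941 CPM, log2 −3.11, SE 0.20, limma adjusted p = 2.47e-05), and Nxpe5 (from 65.3 and 62.3 to 12.02 and 13.2 CPM, log2 −2.33). The endothelin receptor gene Ednrb fell from 78.1 and 86.0 to 19.4 and 19.1 CPM (log2 −2.08). Asb4 and Nxpe5 fell in WT cells too (log2 −3.64 and −2.67), and the genotypes did not differ beyond the threshold (interaction adjusted p = 0.153 and 0.258) except with scaling by totals alone, where the KO fall was the smaller (adjusted p = 0.0163 and 0.00646). Slc40a1, the iron exporter ferroportin, fell from 285 and 326 to 164 and 167 CPM (log2 −0.88). Of 17 clock genes 4 fell (23.5%, against 9.08% of all genes), namely Dbp (from 22.0 and 20.4 to 7.30 and 6.00 CPM, log2 −1.67), Nr1d1 (−1.26), Nfil3 (−0.89) and Bhlhe41 (−0.64), and 7 fell with scaling by totals alone and 8 in the rlog table. The mitochondrially encoded mt-Co3 was erratic, at 88.5 and 79.4 CPM in the untreated libraries and 0.0660 and 24.7 CPM in the control libraries (SE 1.67), and its call was lost for mt-Co3 without untreated 1 or untreated 2, with no filter and with only the 4 KO libraries in the fit (adjusted p up to 0.149).

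Among the KO calls, 118 genes rose in KO and fell in WT, and 200 fell in KO and rose in WT. All 318 had a called interaction, which adds little, since they were selected for opposite calls in the same fit. With scaling by totals alone these numbers were 226 and 135. Guanine deaminase, encoded by Gda, lay at 50.1 and 48.5 CPM in the untreated libraries and 8.45 and 9.96 CPM in the control libraries (log2 −2.41, SE 0.12, limma adjusted p = 7.66e-06), and Cd38, an enzyme that consumes NAD, at 195 and 239 CPM in the untreated libraries and 43.2 and 52.5 CPM in the control libraries (log2 −2.18, SE 0.18, limma adjusted p = 7.6e-05). In WT cells Cd38 rose by 1.47, while the WT rise of Gda (0.35) turned to −0.183 with scaling by totals alone. Pald1, a phosphatase-like protein, went from 9.13 and 7.36 to 32.4 and 32.4 CPM in KO (log2 1.97) and fell in WT cells (log2 −2.16). Sesn1, a sestrin that restrains mTORC1, went from 100.14 and 103 to 163 and 175 CPM (log2 0.73), against −2.77 in WT. Tle1, a corepressor, rose in KO (log2 1.81) and fell in WT cells (log2 −0.52), a WT fall that the deposited scaling left short of the threshold. The threshold was missed for Sesn1 without control 2 (adjusted p up to 0.0540).

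**Figure D4:**
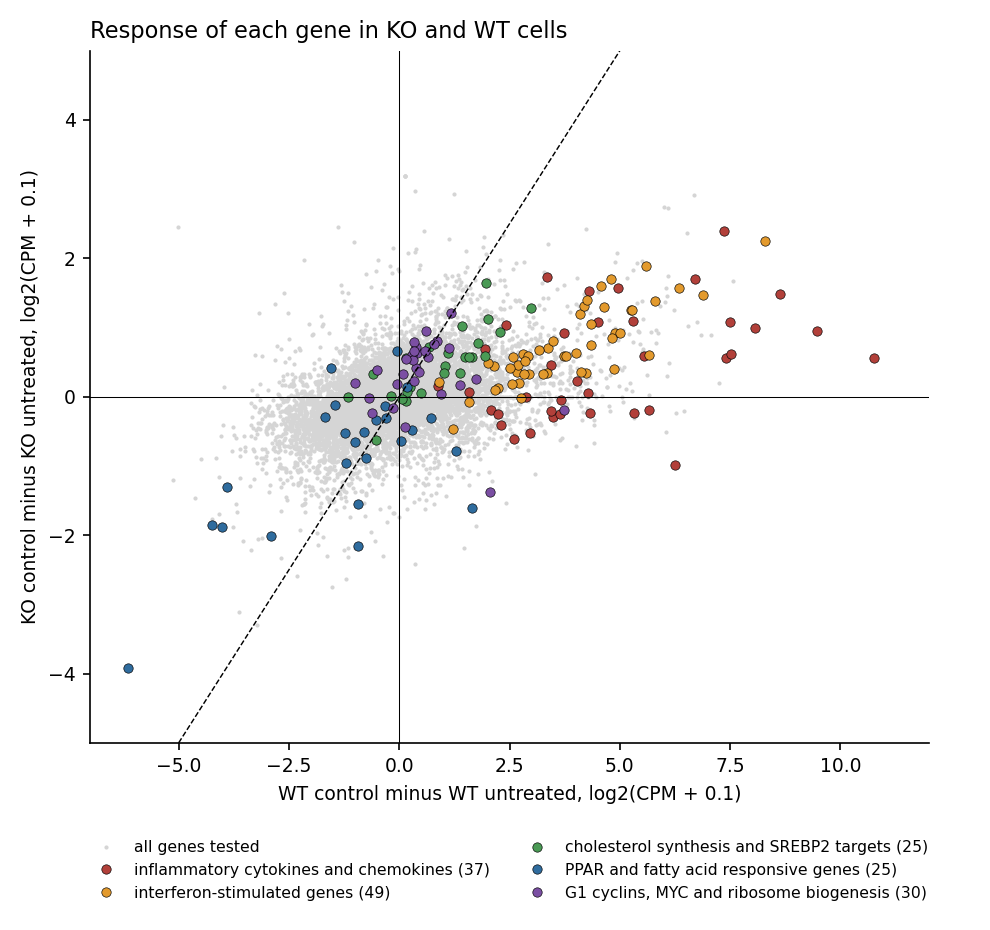
Difference of each gene between control and untreated cells, in WT cells (x axis) and KO cells (y axis), on the log2(CPM + 0.1) scale, with the members of 5 lists in colour and a dashed line where both are equal. Inflammatory and interferon genes lie far to the right of the line, with medians of 4.29 and 3.73 in WT and 0.465 and 0.593 in KO cells. G1, MYC and ribosome genes have medians of 0.381 in WT and 0.404 in KO cells. Their KO response was above WT for 3 of 30 and below for 7 (22.0% and 23.7% of all genes). With scaling by totals alone it was 20 and 5 (6518 and 1695 of all 13171 genes). 1 gene, mt-Co3, lies outside the axes.

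**Figure D5:**
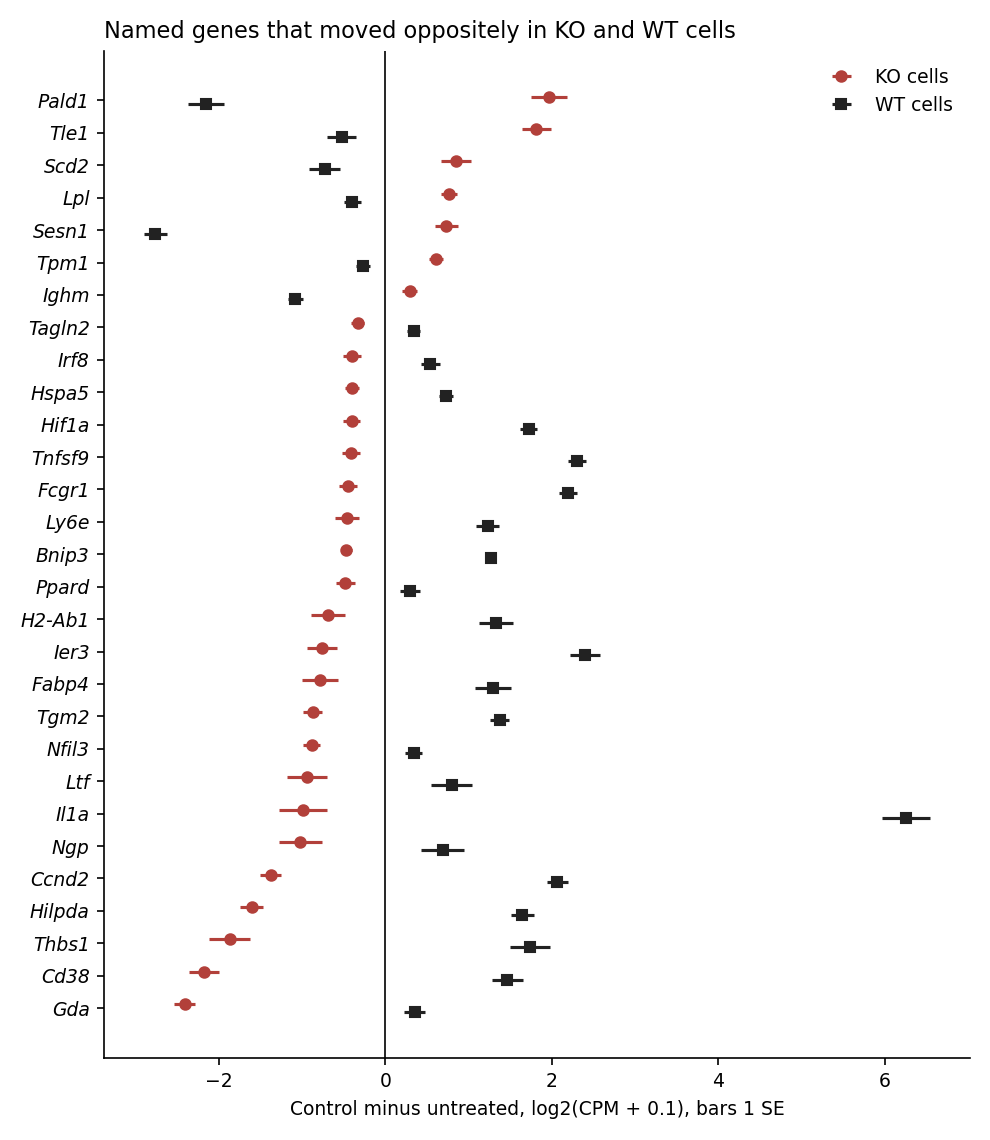
Control minus untreated difference in KO (circles) and WT cells (squares) for the 29 named genes whose called differences had opposite signs, on the log2(CPM + 0.1) scale with bars of 1 SE. KO and WT symbols lie on opposite sides of 0 for each, and with all 4 scalings tried for 25 of the 29.

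The remaining lists had 6 or fewer members called in each direction, beside 10.9% of all genes higher and 9.08% lower. Of 33 lysosome genes 3 rose (9.09%) and 5 fell (15.2%), of 19 p53 targets 3 (15.8%) and 6 (31.6%), of 23 FOXO and growth factor withdrawal genes 3 (13%) and 5 (21.7%), and of 18 glucocorticoid-responsive genes 2 (11.1%) and 3 (16.7%). With 1 library left out the numbers that fell were 1 to 4 for the lysosome, 1 to 2 for the p53, 2 for the FOXO and 1 to 3 for the glucocorticoid genes. Among them Cited2, a transcriptional coregulator, rose from 24.8 and 23.3 to 50.9 and 45.7 CPM (log2 1.00), and the insulin receptor gene Insr fell from 65.7 and 72.7 to 45.7 and 46.7 CPM (log2 −0.58). Klf9, a glucocorticoid target, fell from 4.91 and 6.00 to 2.67 and 2.37 CPM (log2 −1.08). Of 17 metal handling genes 1 rose (5.88%) and 3 fell (17.6%), of 11 M-CSF and osteoclast genes 2 (18.2%) and 1 (9.09%), and of 9 aryl hydrocarbon receptor targets 2 rose (22.2%, 1 with any library left out) and 7 did not pass. Of 7 retinoid-responsive genes 3 fell (42.9%) and 4 did not pass, and 3 to 4 fell with 1 library left out. One that fell was the receptor gene Rara (from 14.9 and 12.5 to 7.96 and 6.23 CPM, log2 −0.94). The threshold was missed for Klf9 without untreated 2 or control 2 (adjusted p up to 0.0938).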

How the data were processed

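Messenger RNA of 10 macrophage libraries in 5 groups of 2 was sequenced from stranded TruSeq libraries, per the labels' protocols. Per the submitters' processing notes reads were handled with DESeq2, RSEM 1.2.12, Trim Galore 0.2.8 and STAR 2.4.0d. No label names the build of the deposited table. The authors deposited a table of counts multiplied by 1 factor per library and rounded, so its values are a scaled signal and not raw counts, and a table of log2 values (rlog) for 19209 genes. Because of this scaling, tests for raw counts were not used. The main test was limma, and an alternative analysis on counts that had been planned was not run.

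The scaled values were divided by library totals and trimmed mean factors (30% of ratios and 5% of levels trimmed, 1.16 to 1.21 in the 4 KO libraries). Genes with at least 10 in 2 or more of the 10 libraries were kept (13171 of 45318). Rows with no gene symbol took 0.111% to 0.125% of each total. limma 3.58.1 with a mean trend (R 4.3.3) was fitted to log2(CPM + 0.1) with 5 group means over all 10 libraries, and p-values were adjusted by Benjamini-Hochberg over all tested genes. Counting error at each gene cannot be recovered from scaled values, and replicates differed by a median of 0.114 (control) and 0.132 (untreated) on the log2 scale. The code was tested on simulated data.

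Named genes were Tlr4, the 15 called genes with the highest and the 15 with the lowest difference, key members of 41 gene lists and up to 4 other called members of each, the 10 largest interactions and the 10 smallest adjusted p-values, of which not all are printed. Some genes are not reported here. Members and lists were chosen with earlier results of these data known. Members that make up a count of 5 or fewer, and genes named beyond the rule, were chosen after their values were seen. Alternatives were other scalings, pseudocounts and filters, the 4 KO libraries alone, the rlog table, a replicate block and leaving out each library. The other scalings of the WT response and of the interaction were chosen after seeing the data. Gene positions are from GENCODE M21 (GRCm38), and promoters from RefSeq (GRCm38.p6).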

Additional observations from a re-analysis of the deposited data

Results flagged for a closer look

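For 29 named genes the called KO and WT responses to the control medium had opposite signs, and the test of the difference between genotypes (KO minus WT response, log2) passed for each. Opposite calls in the same fit made that pass nearly certain, so it adds little. Among 210 named genes, the interaction was called for 148, beside 6025 (45.7%) of all 13171 genes tested. The naming rule itself took in the 10 largest interactions. Immune and receptor genes that fell in KO and rose in WT cells were Il1a (−7.25), Ier3 (−3.16), Tnfsf9 (−2.72), Ly6e (−1.69), Irf8 (−0.943), Fcgr1 (−2.64), H2-Ab1 (−2.02), Cd38 (−3.64) and Nfil3 (−1.23). Metabolic and stress genes of that kind were Hilpda (−3.25), Fabp4 (−2.08), Ppard (−0.774), Gda (−2.76), Bnip3 (−1.73), Hif1a (−2.13) and Hspa5 (−1.13). The remaining genes with that pattern were Thbs1 (−3.61), Ccnd2 (−3.44), Tgm2 (−2.24), Ltf (−1.74), Ngp (−1.71) and Tagln2 (−0.671).

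Genes that rose in KO and fell in WT cells were Ighm (1.37), Lpl (1.16), Pald1 (4.13), Scd2 (1.58), Sesn1 (3.50), Tle1 (2.34) and Tpm1 (0.880). The WT sign depended on the scaling for Gda, Nfil3, Ppard and Tagln2, which had opposite directions in 3 of the 4 scalings. In 18 of the 29 the opposite direction, the WT call and the interaction call held in all 4. The KO call was not part of that count. Ighm, among the 18, lost its KO call with scaling by totals alone and with the deposited scaling. KO calls of other genes among the 29 were lost with 1 library left out, as the report gives. Ngp and Ltf are neutrophil granule genes. The neutrophil marker sums stand in the report, and their fall in KO cells lay nearly all in Mmp9 and Mmp8.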

How the results depend on the processing

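Leaving out 1 KO library in turn gave 1037 to 1584 genes called in KO cells, 580 to 917 of them higher and 457 to 667 lower, against 2632, 1436 and 1196. A fit with only 1 library in an arm assumes that it varies like the other groups. Other scalings, pseudocounts and filters gave 2114 (no filter, 20687 genes tested) to 2753 calls. Of 203 named genes that were called, 122 kept the call in all 14 alternative settings, 81 lost it in at least 1, and 0 changed direction. Without each library in turn, 123 kept it. Since the KO groups of these 203 genes did not overlap, leaving out 1 library could not have changed a direction. The analysis of recovered raw counts was not run, since the deposited values are scaled and rounded.

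The labels do not say whether same-numbered libraries were paired, and the main fit took no pairing into account. Deviations of same-numbered KO libraries correlated at 0.487 over genes at 1 CPM or more (0.306 over all tested), the highest of 10 group pairs, whose lowest was −0.00870. Genes above 0 numbered 16405 and 16432 in untreated 1 and control 1, against 15622 and 15426 in untreated 2 and control 2. Whether these values come from a pairing was not tested. With the replicate block 3325 genes were called, 1792 higher and 1533 lower, and 40 interferon-stimulated genes rose in place of 27. In mitosis genes 3 fell in that fit.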
